A study of Homo sapiens with 2 samples.

Results

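The genes described here are 10 rows of a table of 37122 gene rows. They were chosen by name as the genes of MHC class II antigen presentation, with earlier results of these data known. They are the chains HLA-DRA, HLA-DRB1, HLA-DPA1, HLA-DPB1, HLA-DQA1 and HLA-DQB1, the peptide loading genes HLA-DMA and HLA-DMB, the invariant chain gene CD74 and the transactivator gene CIITA. All 10 had a row and at least 10 reads, and 9 had at least 1000 reads in both libraries together. RNA-seq compared Ramos, a human Burkitt's lymphoma B-cell line, with Ramos640, a derivative of Ramos resistant to complement-dependent cytotoxicity mediated by rituximab, an antibody against CD20. Ramos640 was kept resistant with rituximab at 640 (µg/mL in the methods, mg/mL in the labels) and 20% normal human serum (NHS) every 21 days, and no such treatment is given for Ramos. Both lines grew in RPMI medium with fetal bovine serum and penicillin/streptomycin. Each line gave 1 library, made from RNA pooled over 3 passages. No difference below therefore has a replicate check or a p-value, and the 95% intervals cover counting error only. A selected line, its repeated drug and serum exposure and its 1 library cannot be told apart here.

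MHC class II molecules are pairs of an alpha and a beta chain that show peptides from endocytosed and membrane proteins to CD4+ T cells. B cells, dendritic cells and macrophages make them constitutively. New pairs bind the invariant chain, which guides them to endosomes, and the HLA-DM pair then exchanges the leftover invariant chain peptide for other peptides, while the HLA-DO pair, found mainly in B cells, restrains HLA-DM. CIITA binds no DNA itself but docks on the RFX, CREB and NF-Y proteins assembled on the S, X and Y boxes of the promoters of these genes.

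The libraries held 38030090 reads (Ramos) and 30871826 reads (Ramos640). A log2 fold change is that of Ramos640 over Ramos after median-of-ratios scaling, with a pseudocount of 1 read. Over the 18778 genes with at least 10 reads, its median was -0.015 and its quartiles were -0.40 and 0.34. The labelled cell type had its markers, since all 8 B-cell markers examined were above the floor of 3 reads in both libraries, with summed levels of 4191 reads per 1000000 reads of the library (CPM) in Ramos and 4813 CPM in Ramos640. By log2 fold change 4 of the 8 were above 0 and 4 below, with a median of 0.0057, CD79B at 0.64 and PAX5 at -0.80. Of the 8 markers, MS4A1, which encodes CD20, had 9654 reads in Ramos and 1904 in Ramos640. Markers of other class II positive cells were low, with 7 monocyte markers summing to 0.526 and 0.551 CPM and CD14 at 2 and 3 reads. The 7 dendritic cell markers summed to 18.1 and 8.10 CPM, nearly all of it from CD1C with 642 and 247 reads, while FCER1A, LILRA4 and XCR1 were at 0 in both. The 7 T-cell markers summed to 0.815 and 2.92 CPM, and 4 of them, CD3D, CD2, TRAT1 and CD8A, were at 0 in both libraries, with CD3E at 1 and 31 reads. The 5 plasma cell markers summed to 2379 and 3010 CPM, with XBP1 at a log2 fold change of 0.71, MZB1 at 0.48, JCHAIN at 0.32, TNFRSF17 at -0.73, and SDC1, which encodes CD138, at 1 and 3 reads. The part of these marker differences in the class II values was not tested.

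The promoters of the class II genes resemble each other in a short stretch before the start site, and windows of 52 bases around it are printed for genes that differed by very different amounts between the libraries. They are RefSeq reference sequence on GRCh38.p14, 5′ to 3′ on the gene's strand, and not the alleles of Ramos. Capitals mark AGNNACNGA, the core of the X box, and ATTGG or its reverse complement CCAAT, the Y box. These letters were chosen after reading class II promoters, so their presence there is no independent result.
HLA-DRB1 (chr6:32589882-32589933, minus strand): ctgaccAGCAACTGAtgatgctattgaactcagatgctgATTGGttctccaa
HLA-DQA1 (chr6:32637298-32637349, plus strand): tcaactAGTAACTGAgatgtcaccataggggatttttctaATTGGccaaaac
HLA-DQB1 (chr6:32666733-32666784, minus strand): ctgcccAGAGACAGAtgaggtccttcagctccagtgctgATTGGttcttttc
HLA-DPA1 (chr6:33073703-33073754, minus strand): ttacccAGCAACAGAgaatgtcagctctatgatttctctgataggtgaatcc
HLA-DPB1 (chr6:33075851-33075902, plus strand): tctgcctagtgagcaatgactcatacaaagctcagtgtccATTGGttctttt
HLA-DMA (chr6:32953165-32953216, minus strand): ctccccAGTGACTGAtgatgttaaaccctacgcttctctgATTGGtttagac
HLA-DMB (chr6:32941071-32941122, minus strand): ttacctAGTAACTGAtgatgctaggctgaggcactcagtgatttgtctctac
HLA-DOA (chr6:33009647-33009698, minus strand): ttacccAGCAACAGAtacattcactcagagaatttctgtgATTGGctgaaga
HLA-DOB (chr6:32817089-32817140, minus strand): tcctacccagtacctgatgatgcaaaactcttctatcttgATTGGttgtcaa
CD74 (chr5:150412952-150413003, minus strand): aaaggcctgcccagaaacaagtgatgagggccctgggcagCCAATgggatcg

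Of the 15 genes looked up, 13 matched a promoter in the RefSeq table, and HLA-DRA and CIITA had no entry. The 13 genes gave 14 windows of 300 bases because HLA-DPA1 has 2. The HLA-DPA1 window not printed held neither motif before the start site on the gene's strand. On either strand, AGNNACNGA was in 8 of these 14 windows and in 15.3% of all 35116 windows of the table, and ATTGG was in 12 of the 14 and in 34.6% of all. The X core followed by ATTGG after 24 or 25 bases was in 19 windows of the whole table (0.0541%). Of these, 6 belonged to HLA-DRB1, HLA-DRB5, HLA-DQA1, HLA-DQB1, HLA-DMA and HLA-DOA, and the other 13 to genes outside the family. The 6 genes with this arrangement ranged from HLA-DOA, with a log2 fold change of 0.0035, to HLA-DQB1, which had the largest of the 10 chosen genes. Any link between these letters and the differences was not tested.

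The 6 classical chains were all higher in Ramos640, with log2 fold changes from 0.79 to 1.81 and a median of 1.06. Of the 10 chosen genes, 8 were higher by more than 1.5-fold and 0 were lower by that much, against 14.6% of all tested genes higher and 17.3% lower. Among genes with at least 1000 reads, 6.87% were higher and 7.93% lower, and 7 of the 9 chosen genes of that depth were higher. Over the 10 genes the median was 0.89. With the GC trend taken out, HLA-DPB1 had the smallest difference of the 6 classical chains, at 0.85, and HLA-DQB1 the largest, at 1.70. In bulk RNA, more of a transcript per cell and more cells that carry it cannot be told apart. CD74 and the chains shared this direction, while the HLA-DM genes lay within 1.5-fold. With a limit of 2-fold, 4 of the 10 remained above it, beside 6.64% of all tested genes higher and 8.75% lower.

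**Figure D1:**
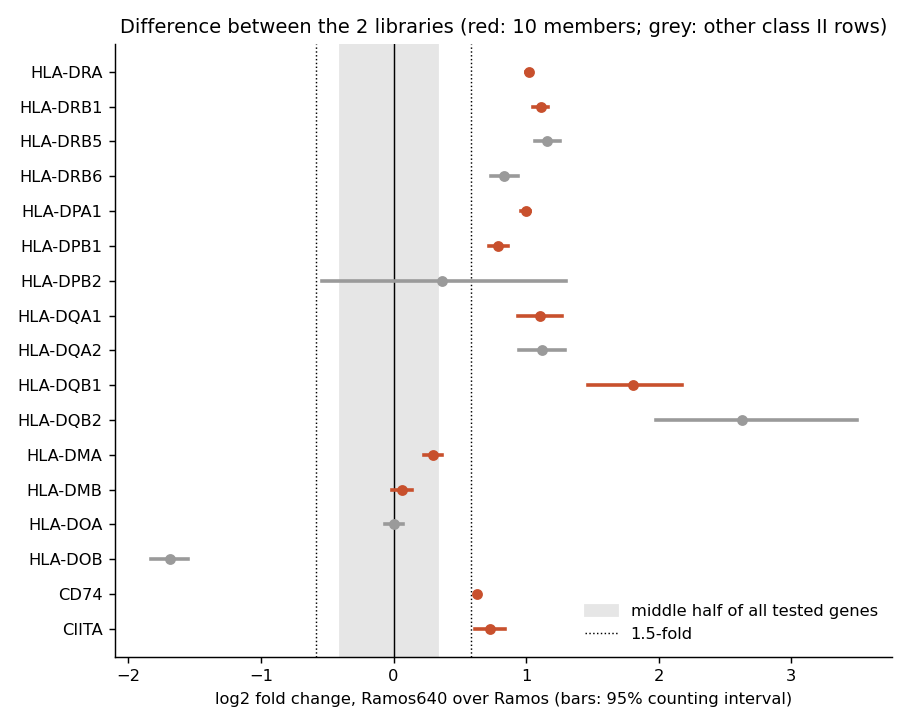
Log2 fold change (Ramos640 over Ramos) of the 10 chosen genes (red) and 7 further class II rows (grey), 1 library per cell line, with 95% counting intervals as bars, the quartiles of all tested genes shaded and 1.5-fold dotted. The 6 classical chains, CD74 and CIITA lie right of the 1.5-fold line, HLA-DMA and HLA-DMB lie inside it, and HLA-DOB is far to the left at -1.69.

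HLA-DR is the most abundant class II isotype of B cells, and its invariable alpha chain is encoded by HLA-DRA (GRCh37 chr6:32407655-32412823, plus strand). HLA-DRA had 29316 reads in Ramos and 45630 in Ramos640, or 771 and 1478 CPM. Its log2 fold change was 1.02 (counting interval 1.00 to 1.04), and it moved from rank 153 to rank 71 among all rows by CPM. It was thus already among the most abundant transcripts of the parental line and stood higher still in the derivative. Per length, in CPM per kilobase of transcript (RPKM), its level was 641 in Ramos and 1230 in Ramos640.

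HLA-DRB1 (chr6:32545679-32557625, minus strand) encodes the polymorphic beta chain that pairs with it. It had 4039 and 6703 reads, a log2 fold change of 1.11 (1.05 to 1.17), and 82 of the 8226 genes with at least 1000 reads had a larger one. The number of HLA-DRB1 reads per HLA-DRA read was 0.138 in Ramos and 0.147 in Ramos640, a log2 change of 0.093 (0.032 to 0.15), so both chains differed by nearly the same factor. HLA-DRB5, a further beta chain gene, had 1422 and 2442 reads (log2 fold change 1.16), and the pseudogene HLA-DRB6 had 1443 and 1979 (0.84). HLA-DRB5 and HLA-DRB1 share 8.69% of the 50-base windows of the HLA-DRB1 transcript, so reads may be split between them, and their ratio was 0.352 and 0.364. HLA-DRB3 and HLA-DRB4 had no row. Summed over HLA-DRB1, HLA-DRB5 and HLA-DRB6, which is less sensitive to such splitting, the reads were 6904 and 11124, a log2 fold change of 1.07. The 4 HLA-DR rows together, mostly HLA-DRA, stood at 952 and 1838 CPM, a log2 fold change of 1.03 (1.01 to 1.05).

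HLA-DPA1 (chr6:33032346-33048552, minus strand), the alpha chain of HLA-DP, had 12113 reads in Ramos and 18552 in Ramos640. Its log2 fold change was 1.00 (0.96 to 1.03), close to that of HLA-DRA. Its partner HLA-DPB1 (chr6:33043767-33057473, plus strand) had 2760 and 3667 reads and a log2 fold change of 0.79 (0.72 to 0.86), the smallest of the 6 classical chains. The ratio of HLA-DPB1 to HLA-DPA1 reads was 0.228 in Ramos and 0.198 in Ramos640, a log2 change of -0.21 (-0.28 to -0.13), so the pair did not differ by the same factor. The genes overlap on opposite strands, and whether the counting used strand is not given in the sources used here. The pseudogene HLA-DPB2 had 22 reads in each library.

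HLA-DQ had the fewest reads of the isotypes. Reads were aligned to GRCh37 and not to the alleles of Ramos, and how many reads of polymorphic chains this lost was not tested. HLA-DQA1 (chr6:32595956-32614839, plus strand), its alpha chain, had 487 and 805 reads, a log2 fold change of 1.10 (0.94 to 1.27). HLA-DQB1 (chr6:32627244-32636160, minus strand), its beta chain, had 93 and 252 reads, a log2 fold change of 1.81 (1.47 to 2.18). This was the largest difference among the 10 genes and also the least precise, because HLA-DQB1 had the fewest reads. The ratio of HLA-DQB1 to HLA-DQA1 reads was 0.191 and 0.313, a log2 change of 0.71 (0.33 to 1.09). The paralogues showed the same direction, with HLA-DQA2 at 438 and 732 reads (1.12) and HLA-DQB2 at 19 and 95 (2.63, with an interval of 1.98 to 3.50). HLA-DQA1 shares 9.64% of its 50-base windows with HLA-DQA2, and HLA-DQB1 shares 5.01% with HLA-DQB2, so the reads of either pair are uncertain between its genes. The 4 HLA-DQ rows together stood at 27.3 and 61.0 CPM, a log2 fold change of 1.24 (1.13 to 1.35).

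**Figure D2:**
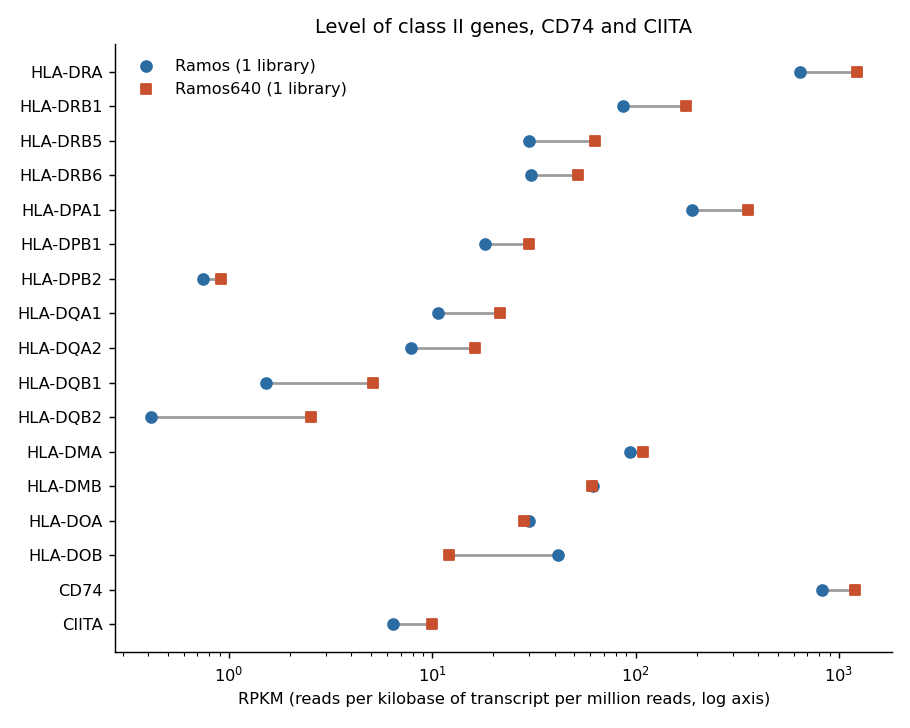
Level in RPKM (log axis) of each class II row, CD74 and CIITA in the Ramos library (blue circles) and the Ramos640 library (red squares), 1 library each. CD74 and HLA-DRA lead at 823 and 641 RPKM in Ramos and change places in Ramos640 (1205 and 1230), HLA-DQB1 is the lowest of the chosen genes, and HLA-DOB is the row with the large shift to the left.

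The order of the chosen genes by RPKM in Ramos was CD74 (823), HLA-DRA (641), HLA-DPA1 (190), HLA-DMA (94.0), HLA-DRB1 (86.8), HLA-DMB (61.9), HLA-DPB1 (18.2), HLA-DQA1 (10.6), CIITA (6.40) and HLA-DQB1 (1.52). In Ramos640 HLA-DRA (1230 RPKM) stood above CD74 (1205), and HLA-DRB1 (178) above HLA-DMA (109), while the order of the rest was kept at these lengths. Neighbours in this order cannot be compared beyond counting error with 1 library each. The order also rests on alignment to the reference and not to the alleles of Ramos, whose effect on the polymorphic chains was not tested. Lengths are medians over annotated coding transcripts, and for CIITA the choice matters, since the canonical transcript of 16061 bases, in place of the median of 4657, gave 1.86 RPKM in Ramos and 2.91 in Ramos640. With canonical lengths for all 10 genes, CIITA stood below HLA-DQB1 (5.09 RPKM) in Ramos640, and HLA-DMA (86.6) just below HLA-DRB1 (86.8) already in Ramos.

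HLA-DMA and HLA-DMB form the pair that catalyses peptide exchange. HLA-DMA (chr6:32916390-32936871, minus strand) had 3599 and 3392 reads, a log2 fold change of 0.30 (0.23 to 0.36). HLA-DMB (chr6:32902406-32908805, minus strand) had 3174 and 2548 reads, a log2 fold change of 0.064 (-0.012 to 0.14), which turned to -0.016 with total-count scaling and to -0.059 once the GC trend was taken out. Neither passed 1.5-fold, so the loading pair differed by less than the chains it serves. Reads of the HLA-DM pair per read of the 6 classical chains were 0.139 in Ramos and 0.0786 in Ramos640, a log2 change of -0.82 (-0.87 to -0.77), and such a ratio within a library does not depend on scaling. HLA-DMA overlaps BRD2, which lies on the opposite strand and had 13279 and 11237 reads (0.14). Whether any BRD2 reads were counted for HLA-DMA was not tested.

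HLA-DOA and HLA-DOB, which are not among the 10 chosen genes, encode the pair that restrains HLA-DM. HLA-DOB (chr6:32780540-32788243) had 2169 reads in the Ramos library against 516 in that of Ramos640, a log2 fold change of -1.69 (-1.83 to -1.55), and of the class II rows examined was the only 1 lower by more than 1.5-fold. HLA-DOA had 3943 and 3035 reads, a log2 fold change of 0.0035 (-0.065 to 0.072), which turned to -0.077 with total-count scaling and to -0.10 after removal of the GC trend. The genes of this pair thus differed from each other, with 0.550 HLA-DOB reads per HLA-DOA read in Ramos and 0.170 in Ramos640. Reads of HLA-DM per read of HLA-DO were 1.11 and 1.67, a log2 change of 0.59 (0.52 to 0.67), and per kilobase of transcript the ratio was 2.18 and 4.20 (log2 change 0.94). Over the 7 further class II rows the median was 0.84. Past 1.5-fold, 4 were higher and 1 was lower, beside 14.6% and 17.3% of all tested genes.

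CD74 (chr5:149781200-149792532, minus strand), the invariant chain, lies outside the MHC. Its 39745 reads in Ramos and 47255 in Ramos640 were the most of the 10 genes, at ranks 103 and 69 among all rows by CPM. Its log2 fold change was 0.63 (0.61 to 0.65), just above the limit of 1.5-fold at 0.58, and below that limit at 0.55 with total-count scaling and at 0.43 after removal of the GC trend. CD74 reads per HLA-DRA read were 1.36 in Ramos and 1.04 in Ramos640, a log2 change of -0.39 (-0.42 to -0.36). The invariant chain was thus higher in Ramos640 by less than the alpha chain of HLA-DR. By closeness in the plane of the 2 log2 CPM values, the rows most like CD74 included ND2 and RPL36, and those most like HLA-DRA included RPL35 and IGLC2. With 2 libraries this likeness means only a like level in each.

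CIITA (chr16:10960079-11036878, plus strand) had 1134 reads in Ramos and 1441 in Ramos640, or 29.8 and 46.7 CPM. Its log2 fold change was 0.73 (0.61 to 0.84), and 344 of the 8226 genes with at least 1000 reads had a larger one. CIITA reads per read of the 6 classical chains were 0.0232 and 0.0191, a log2 change of -0.29 (-0.40 to -0.17), so the transactivator differed in the same direction as the chains and by a smaller factor. Per read of the HLA-DM pair, CIITA was at 0.167 and 0.243, a log2 change of 0.53 (0.41 to 0.66). The rows most like CIITA in both libraries were RPS4XP16, CIB1 and IPO13. CIITA has several promoters, whose use cannot be read from counts per gene, and it overlaps DEXI on the opposite strand, which had 339 and 270 reads (0.053).

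**Figure D3:**
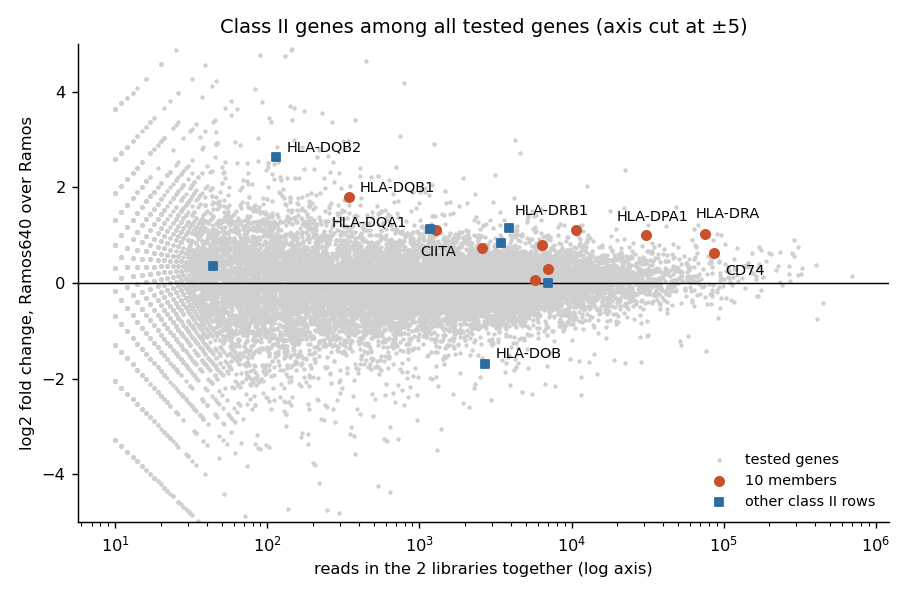
Log2 fold change against the reads of the 2 libraries together (log axis) for the tested genes (grey, axis cut at 5 in both directions), with the 10 chosen genes in red and 7 further class II rows in blue. HLA-DRA, HLA-DPA1 and HLA-DRB1 lie above the grey cloud's bulk at high read numbers, and HLA-DQB1 and HLA-DQB2 lie higher at low read numbers, where the cloud is wider.

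All 15 class II chain rows together took 65037 reads in Ramos and 90370 in Ramos640. That was 1710 CPM (1697 to 1723) and 2927 CPM (2908 to 2946), a log2 fold change of 0.86 (0.84 to 0.87). Most of it was HLA-DR, and the HLA-DP rows added 392 and 720 CPM. The HLA-DO pair was the exception, at 161 and 115 CPM (-0.40).

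The transcripts of the proteins that carry CIITA to class II promoters did not differ in one direction. Of the 7 RFX, NF-Y and CREB genes, 0 were higher by more than 1.5-fold and 2 were lower. The shares over all tested genes were 14.6% higher and 17.3% lower, and the median log2 fold change of the 7 was 0.15. RFXAP, a subunit of the RFX complex, had 425 reads in Ramos and 199 in Ramos640 (-0.71), and NFYB, a subunit of NF-Y, had 1020 and 485 (-0.69). After removal of the GC trend both were within 1.5-fold, at -0.57 and -0.31. RFX5, which binds the X box, had 7101 and 6049 reads (0.15), and RFXANK, the other accessory subunit of RFX, had 1157 and 1234 (0.47).

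Among 10 known regulators of CIITA in B cells, 3 were higher, 1 was lower and the median was -0.023, beside 14.6% and 17.3% of all tested genes, and 2 of the 3 had at most 31 reads in a library. POU2F2, the octamer factor Oct-2, had 2921 reads in Ramos and 4245 in Ramos640 (0.92). PAX5, the factor that keeps B-cell identity, had 4624 and 2039 (-0.80). PRDM1, the plasma cell factor Blimp-1 that represses CIITA, had 16 and 31 reads (1.28, with an interval of 0.42 to 2.30), and its partner ZBTB32 had 10 and 13 (0.70, interval -0.54 to 2.11). Both repressors thus had few reads in either library. SPI1, the factor PU.1, had 1987 and 1030 reads (-0.57), and EBF1, an early B-cell factor, had 692 and 362 (-0.55). Both passed 1.5-fold with total-count scaling, at -0.65 and -0.63. After removal of the GC trend SPI1 was at -0.72 and EBF1 at -0.31. IRF4 and IRF8, which bind with PU.1, stood at -0.053 and -0.33.

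Interferon gamma is the main inducer of CIITA in other cell types, through the kinases JAK1 and JAK2. Of 7 genes of that route, 0 were higher and 2 were lower past 1.5-fold, beside 14.6% and 17.3% of all tested genes. The median of the 7 was -0.17. JAK2 had 393 reads in Ramos and 100 in Ramos640 (-1.59), and SOCS1, a feedback inhibitor of the route, had 195 and 99 (-0.59). IRF1, a transcription factor of the route, stood at 0.17. Of 9 chromatin cofactors, among them CREBBP, EP300 and EZH2, none passed 1.5-fold in either direction (median 0.12). KAT2B, a histone acetyltransferase at -0.54, passed it at -0.62 with total-count scaling and was at -0.30 after removal of the GC trend.

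Of 8 tested genes that prepare peptides, 2 were higher and 2 lower (median -0.11), beside 14.6% and 17.3% of all tested genes. IFI30, the thiol reductase GILT that opens disulphide bonds of antigens, had 4285 and 7074 reads, a log2 fold change of 1.10 (1.05 to 1.16), close to that of the class II chains. CTSD, an aspartic protease, had 396 and 460 reads (0.60), and was within 1.5-fold at 0.52 with total-count scaling and at 0.41 with the GC trend taken out. CTSS, the protease that trims the invariant chain in B cells, had 1153 and 965 (0.12), CTSB had 83 and 38 (-0.73), CTSL, counted as lower, had 8 and 3 (-0.86, with an interval of -3.58 to 1.02), and CTSF was under 10 reads. CD83, which protects surface class II from ubiquitination, had 1445 and 845 reads (-0.39). For the signalling partners of CD74, MIF had 4296 and 4827 reads (0.55), CXCR4 had 18906 and 13479 (-0.11) and CD44 had 53 and 12 (-1.69). Of the 45 genes tested in the pathway lists other than class II and class I, 5 were higher and 8 were lower, shares near the 14.6% and 17.3% of all tested genes. With total-count scaling the split was 4 higher and 12 lower, against 12.5% and 20.4% of all tested genes.

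**Figure D4:**
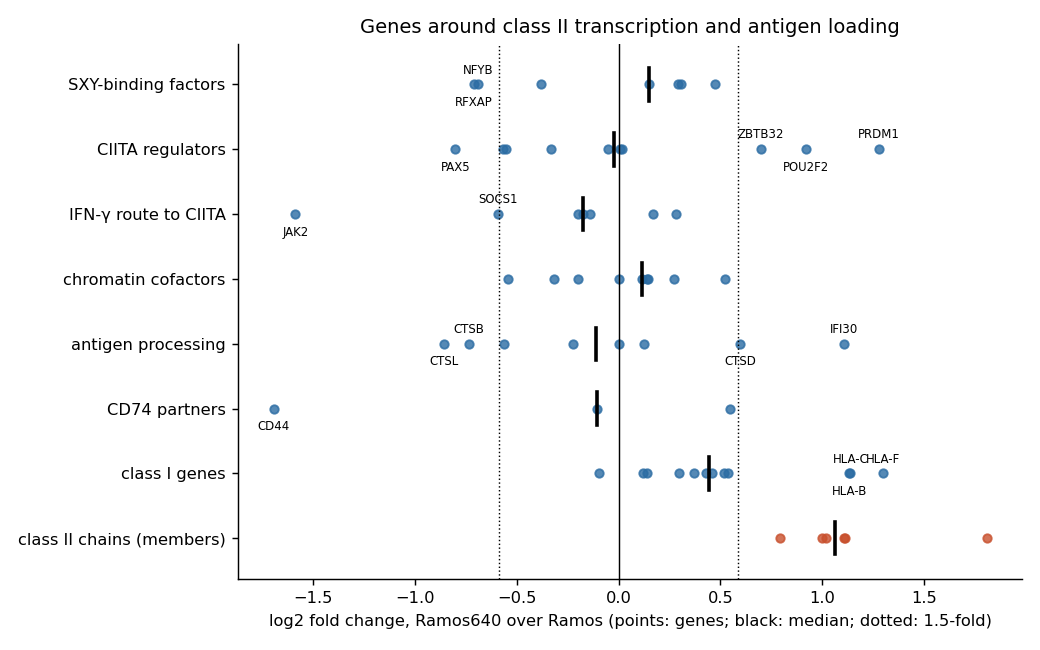
Log2 fold change (Ramos640 over Ramos) of each tested gene by list (points), with the list's median in black and 1.5-fold dotted, 1 library per cell line. The 6 class II chains lie to the right of the 1.5-fold line, while the medians of the regulator and processing lists lie between -0.17 and 0.15 and the class I median is 0.45.

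MHC class I, which presents cytosolic peptides to CD8+ T cells, was examined as the nearest relative. Of 12 class I genes, 3 were higher past 1.5-fold and 0 were lower, beside 14.6% and 17.3% of all tested genes. The class I median log2 fold change was 0.45, against 0.89 for the 10 class II related genes. HLA-B had 23791 reads in Ramos and 40013 in Ramos640 (1.13), HLA-C had 7340 and 12401 (1.14), and HLA-F had 283 and 535 (1.30). These class I heavy chains differed by about as much as the class II chains. B2M, the light chain common to class I, stood at 0.12. NLRC5, the class I counterpart of CIITA, had 2504 and 2590 reads (0.43).

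On chromosome 6, class II genes that were higher were not in one unbroken run. The 5 other tested protein-coding genes inside the region, TAP2, PSMB8, PSMB9, TAP1 and BRD2, had log2 fold changes from -0.095 to 0.46, and none passed 1.5-fold. Of 20 flanking genes, 5 were higher and 2 lower past 1.5-fold, with a median of 0.13. The shares over all tested genes were 14.6% higher and 17.3% lower. Around CIITA, itself at 0.73, 0 of 20 flanking genes were higher and 5 were lower (median -0.21). A difference of the whole region was not tested. Around CD74, 3 of 20 were higher and 2 lower (median 0.071).

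**Figure D5:**
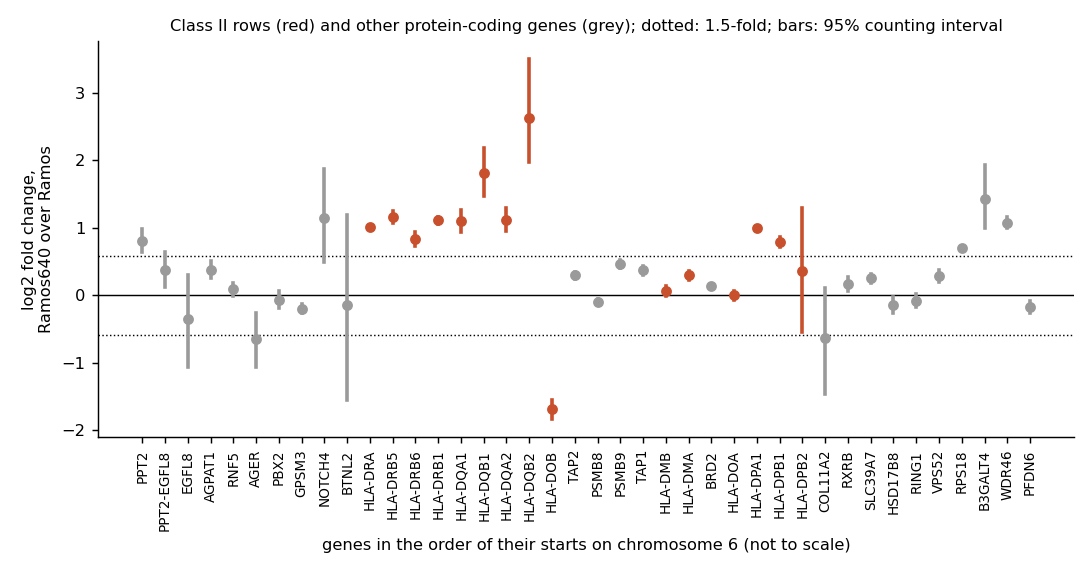
Log2 fold change with 95% counting intervals of class II rows (red) and other tested protein-coding genes (grey) in their order on chromosome 6, not to scale, 1 library per cell line. The classical chains stand above the 1.5-fold line on both sides of a stretch from HLA-DOB to HLA-DOA that holds the HLA-DM genes, TAP1, TAP2 and BRD2, where no gene is above it and HLA-DOB is at -1.69.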

How the data were processed

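RNA-seq was performed on Ramos and Ramos640, 1 library each, from Trizol RNA with an Ion Proton kit. The authors removed adaptors, aligned the reads to GRCh37 with MapSplice 2.1.6 and deposited raw read counts per gene; the counter, its annotation and its treatment of strand and multiply mapped reads are not given in the sources used here. Reads on pseudogenes made up 9.82% (Ramos) and 10.8% (Ramos640). Of 37122 rows, 28 are named by a number and were not traced to genes; MARCHF1 and MARCHF8 had no row of their name.

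Counts were scaled by median-of-ratios size factors (1.14 and 0.876; Python 3.11.15, numpy 2.4.6), with edgeR 4.0.16 TMM factors and total counts as alternatives. With 1 library per line no dispersion can be estimated, so neither edgeR nor DESeq2 was run as a test. Intervals (95%) are Clopper-Pearson for shares and fold changes, Poisson for sums and normal on the log scale for changes of ratios. RPKM used library totals, and lengths and coordinates came from GENCODE 44 lifted to GRCh37, which matched 28774 rows. Promoters came from RefSeq on GRCh38.p14. To take out the GC trend, a running median across 501 genes was subtracted, with GC content known for 84.1% of the tested genes. The text names the 10 chosen genes, genes of the hand-written lists, the 3 rows nearest to CD74, HLA-DRA and CIITA, and genes beside them in the genome. A few of these genes are not reported here. The genes and lists were chosen with earlier results of these data known. The canonical-length level of CIITA was added after seeing the data. The calculation was tested on simulated counts.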

Additional observations from a re-analysis of the deposited data

How the results depend on the processing

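With 1 library per cell line, leaving out a replicate was not possible. No paired analysis was possible because each cell line has 1 library. Of 89 fold changes of single class II genes, CD74 and CIITA under alternative settings, 73 stayed within the counting interval and 16 moved. Of 64 list medians, 52 stayed between the medians of their genes' interval limits and 12 moved. In 0 cases did a difference past 1.5-fold reverse. Of the 10 chosen genes, 9 stayed higher in Ramos640 under every alternative, the exception being HLA-DMB. Total-count scaling moved the median of all tested genes by -0.080, the median of the 10 genes from 0.89 to 0.81 and the summed chain rows from 0.86 to 0.78, and the sum over the 8 chosen chain rows alone was 0.93. With total-count scaling and with the GC trend taken out, 7 of the chosen genes were higher past 1.5-fold, since CD74 fell below it. The shares of all tested genes higher were then 12.5% and 12.4%. A limit of 2-fold left 4 of the 8 chosen genes, and 6.64% of all tested genes higher and 8.75% lower. With at least 1000 reads, 6.87% were higher and 7.93% lower. In the main setting 5 of 45 tested pathway genes were higher and 8 lower. For higher genes, a pseudocount of 10 and removal of the GC trend gave 3 of 45 each, beside 11.5% and 12.4% of all tested genes. A minimum of 100 reads gave 3 of 40 (9.94% of all), 1000 reads 2 of 31 and 2-fold 2 of 45. For lower genes, 1000 reads gave 2 of 31 and 2-fold 2 of 45. Total counts gave 12 of 45 lower, beside 20.4% of all tested genes, and 4 higher. HLA-DM over HLA-DO changed by 0.94 per kilobase against 0.59 in reads, because HLA-DOA and HLA-DOB differ in length. Depth limits HLA-DQB1, HLA-DQB2, HLA-DPB2, PRDM1 and ZBTB32.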
